A study of Mus musculus with 6 samples.

Results

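Pericytes and vascular smooth muscle cells, together called mural cells, wrap the blood vessels of the brain. Pericytes sit on capillaries inside the basement membrane they share with the endothelium and help to maintain the blood-brain barrier, whereas smooth muscle cells ring the arterioles and set their calibre by contraction. Both are recruited to growing vessels by platelet-derived growth factor B from the endothelium, which acts on the receptor encoded by Pdgfrb, and brain vessels are still gaining mural cells in the first postnatal days. Here 10 mural cell genes (Pdgfrb, Rgs5, Acta2, Tagln, Myh11, Smtn, Cnn1, Vtn, Notch3 and Anpep) were followed through every array probe that carries one of these symbols, which gave 15 of the 25697 probes of the array and 10 of its 18138 gene symbols.

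Brain tissue of male mice, labelled FVB and given as FVB/N in the study's methods, at postnatal day 6 was compared between 3 hSRY-OFF and 3 hSRY-ON arrays. Both genotypes carried a single copy of a human SRY transgene at the H11 locus. In hSRY-OFF mice the transgene was not recombined, so that the CAG promoter drove the red fluorescent protein DsRed2 and SRY stayed silent. In hSRY-ON mice, Cre recombinase carried over from the oocyte of a Ddx4-Cre mother had removed DsRed2 in the early embryo and placed FLAG-tagged human SRY with EGFP behind the same promoter, which is active in nearly all cells, so effects that arise inside mural cells cannot be told apart from those that reach them from other tissues. The hSRY-ON mice chosen for the arrays had not inherited the Ddx4-Cre transgene. The study's methods do not give the cross or litters of the hSRY-OFF mice on the arrays. Effects of dam or litter, and of DsRed2 against EGFP, therefore cannot be told apart from those of SRY. The study reports that hSRY-ON pups grew poorly, hardly suckled and lacked milk in the stomach. Some had died by postnatal day 6, and all died as pups. Each hybridization was a separate sample, described by the study as a biological replicate.

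The arrays were alike in brightness, with median signal intensities of 200 to 220 and 13816 to 14377 detected probes. In this text a probe is detected on an array when its detection p-value, which tells how often a negative control reached that brightness, is under 0.05. Of the mural probes, 11 were detected on all 6 arrays and were tested, and they stood for 7 genes. The other 4 probes (Tagln, Myh11, Cnn1 and 1 of 3 for Smtn) failed the filter of detection on 3 or more arrays. The tissue label was checked with markers of brain cells, of which 12 of 14 genes were tested. Of the other 2, the neuronal gene Snap25 was not detected on any array and Rbfox3 was not analysed here. The neuronal Syt1 and Tubb3 and the astrocytic Slc1a3 were detected on all 6 arrays. Defining endothelial markers (Pecam1, Cdh5, Cldn5, Flt1, Tek and Esam) were likewise detected on all 6, while the probe of Kdr was not detected on any.

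In the comparison of hSRY-ON with hSRY-OFF, the clearest mural change was in Vtn, which encodes vitronectin, an adhesive glycoprotein made by brain pericytes. Its normalized signal fell by 33.6%, or by 0.59 on the log2 scale. Smtn, which encodes the contractile-cell protein smoothelin, was lower by a similar amount at 2 probes that did not pass the threshold. The pericyte receptor gene Pdgfrb lay at nearly the same level in both genotypes, and the 4 probes of Acta2, the smooth muscle actin, ranged from 0.05 to 0.30 higher in hSRY-ON with none called. Tagln and Cnn1, which mark contractile smooth muscle, could not be compared because their probes were not detected on any array. In bulk tissue of this kind, fewer cells of a type and less RNA per cell cannot be told apart.

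Of the 11 tested probes, 1 was called at an adjusted p under 0.05 (limma, Benjamini-Hochberg over all 14215 tested probes). Over all tested probes the share called was 2.17%, made up of 1.32% lower and 0.844% higher in hSRY-ON, so with 11 mural probes a count of 1 says little about the group. At an unadjusted p under 0.05 there were 5 of the 11 mural probes, 4 lower and 1 higher, against 20.9% of all probes (10.9% lower). Genotypes did not overlap at 6 of the 11 probes, 5 lower and 1 higher, against 27.7% of all probes (14.2% lower). Regardless of p, 6 of the 11 probes were lower, against 48.9% of all probes. Taking the brightest probe of each gene, 5 of the 7 genes were lower and 2 higher in hSRY-ON, with a median log2 fold change of -0.19 (-0.13 without hSRY-ON array 2), while the median over all 10548 tested symbols was 0.00041. These counts describe a short list whose probes share arrays and, for Acta2 and Smtn, share a gene.

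**Figure D1:**
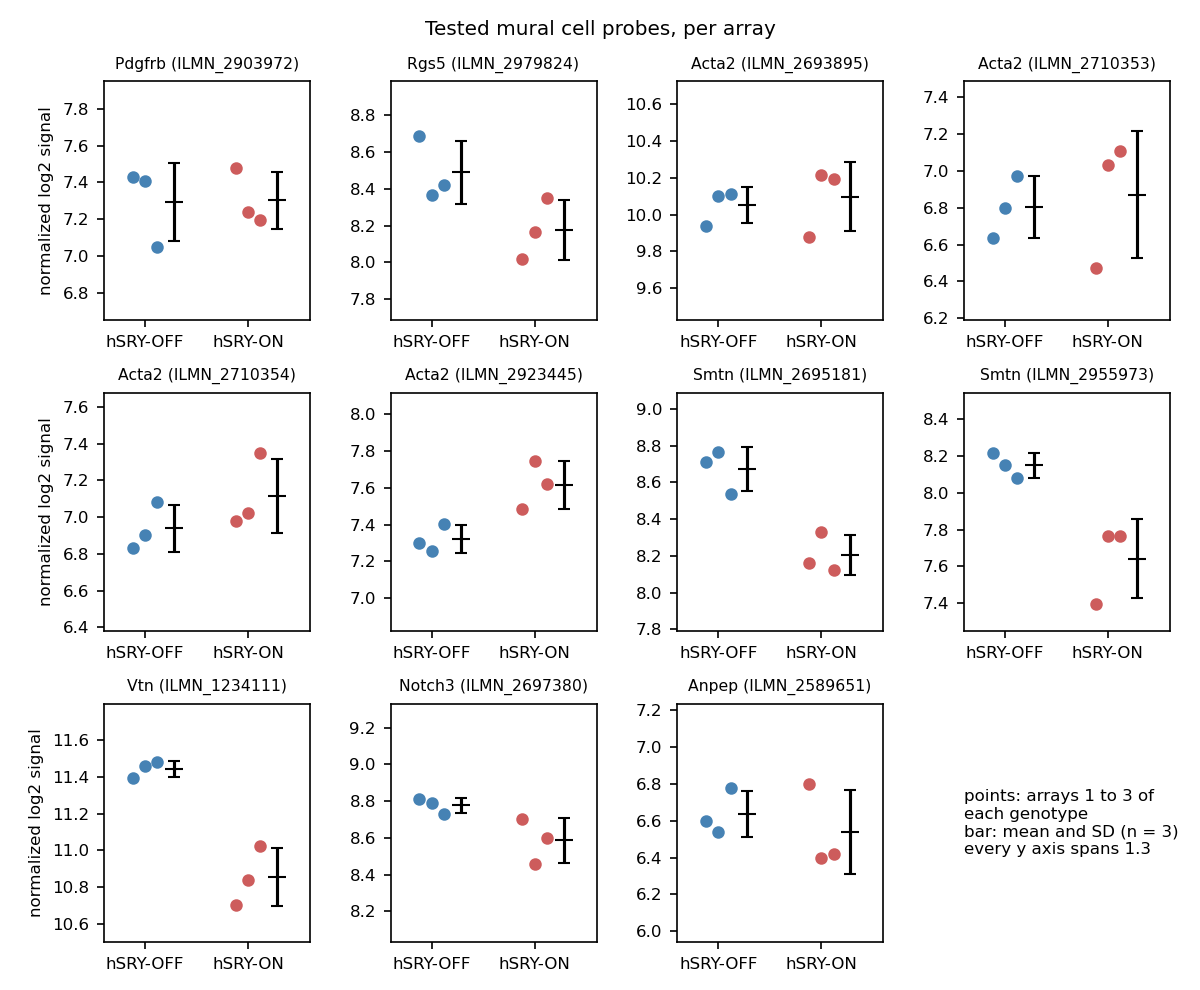
Normalized log2 signal (y axis) of the 11 tested mural cell probes on the 3 hSRY-OFF and 3 hSRY-ON arrays, 1 panel per probe, each y axis spanning the same width. Points are arrays and bars are mean and SD (n = 3). The genotypes are separated at Vtn, both Smtn probes, Rgs5, Notch3 and 1 Acta2 probe, and overlap at Pdgfrb, Anpep and the other Acta2 probes.

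The sequence before the start of transcription is given for Vtn and Smtn, the genes with the largest changes among the members, and for Acta2, whose probes did not move with them, so that their promoters can be set side by side. Each is the RefSeq window of 250 bases up to the start, on the strand of the gene and from assembly GRCm38.p6, at chr11:78498870-78499119 (plus strand) for Vtn, chr11:3539293-3539542 (minus strand) for Smtn and chr19:34255374-34255623 (minus strand) for Acta2. Capitals mark TGGGAA, or TTCCCA where it reads on the other strand, the core bound by RBPJ, the DNA-binding partner of Notch receptors such as Notch3.
Vtn: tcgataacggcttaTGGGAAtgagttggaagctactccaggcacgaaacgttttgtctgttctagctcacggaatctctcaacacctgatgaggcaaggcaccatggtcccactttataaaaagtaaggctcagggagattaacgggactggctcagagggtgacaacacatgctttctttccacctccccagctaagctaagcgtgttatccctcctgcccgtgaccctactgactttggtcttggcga
Smtn: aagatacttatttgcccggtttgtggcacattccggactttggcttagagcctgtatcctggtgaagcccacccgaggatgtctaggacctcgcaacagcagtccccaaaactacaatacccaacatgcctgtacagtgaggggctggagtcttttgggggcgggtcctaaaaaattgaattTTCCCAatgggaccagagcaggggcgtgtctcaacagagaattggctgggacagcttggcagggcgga
Acta2: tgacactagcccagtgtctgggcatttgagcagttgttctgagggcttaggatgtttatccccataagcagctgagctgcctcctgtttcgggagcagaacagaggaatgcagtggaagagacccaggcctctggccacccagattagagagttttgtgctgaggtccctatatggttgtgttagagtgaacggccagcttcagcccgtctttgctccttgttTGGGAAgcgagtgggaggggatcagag
The match ended 230 bases before the start in Vtn, 62 in Smtn and 21 in Acta2. The windows of Rgs5, Notch3 and Anpep, whose probes were lower but not called, held no match. The windows of 7 members were searched on both strands, and these 3 held TGGGAA, against 21.6% of all 32851 windows of this length. AACAAT, a core bound by SRY and SOX proteins, was found in Cnn1 alone, against 9.42% of all windows. The strict CArG box bound by serum response factor (CC, then 6 bases of A or T, then GG) was found in none of the 7, against 1.47%. With 1 of those bases allowed to be C or G, a search added after the sequences were seen, it was found in Acta2 alone, at 2 places of which the one nearer the start shares bases with TGGGAA, against 8.59% of all windows. The windows of Pdgfrb, Tagln and Myh11 were not used here. A match describes letters in the window, not a bound site.

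Vtn was read by 1 probe (ILMN_1234111), detected on every array. Its deposited signal, given in the order of arrays 1 to 3 here and below, was 3200, 2919 and 2910 without SRY expression (hSRY-OFF) and 1859, 1892 and 2157 with it (hSRY-ON). The highest hSRY-ON array thus lay below the lowest hSRY-OFF array, and the mean signal was lower by 34.6% before any normalization. On the normalized log2 scale, Vtn fell from 11.44 ± 0.04 to 10.85 ± 0.16 (mean ± SD, n = 3 in each genotype), that is by 0.59 (SE 0.10, 95% interval of the fold change -0.83 to -0.35, limma adjusted p 0.0386). It ranked 205 by p among the tested probes. The direction was the same in all 15 alternative settings, with log2 fold changes of -0.67 to -0.52. The call was lost when any single hSRY-OFF array was left out (adjusted p 0.107 without the first, 0.126 without the second and 0.119 without the third). The same held for hSRY-ON array 1 (0.101) and array 2 (0.0955), whereas Vtn was called without array 3 of that genotype (0.0281). In these 5 fits at most 1 probe of the whole table was called. The call was also lost with a replicate block (0.103), where 0 probes of the whole table were called, and with no filter on dim probes (0.0606), where 123 were.

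The probes whose centred profiles over the 6 arrays lay nearest to that of Vtn, by root mean square difference, were those of Pltp (0.026), which encodes phospholipid transfer protein, Gpx8 (0.035), which encodes a peroxidase of the endoplasmic reticulum, and Msr2 (0.038). Pltp (ILMN_2589401) fell by 0.56 on the log2 scale (adjusted p 0.0479), and this probe of Gpx8 (ILMN_2625855) fell by 0.65 (adjusted p 0.0321). The other Gpx8 probe (ILMN_2653166) had a log2 fold change of -0.14 (adjusted p 0.631), so the values at the probes of that gene were far apart. Msr2 had a log2 fold change of -0.54 and was not called (adjusted p 0.0542). With 6 arrays in 2 groups, this likeness is set mostly by the size of the difference between genotypes.

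**Figure D2:**
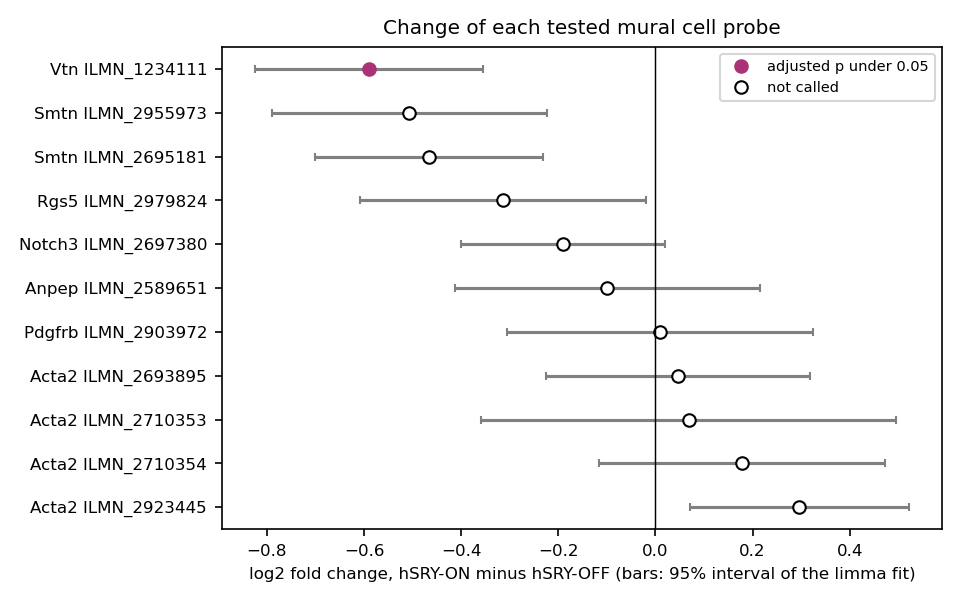
Log2 fold change (x axis, hSRY-ON minus hSRY-OFF) of each tested mural cell probe (y axis), with the 95% interval of the limma fit as bars. The filled point is Vtn at -0.59, the only probe with an adjusted p under 0.05, and the intervals of both Smtn probes and of Rgs5 lie below 0 while that of 1 Acta2 probe lies above it.

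The contractile genes of smooth muscle were read by 10 probes. At Smtn ILMN_2695181 the deposited signal was 633, 578 and 505 in hSRY-OFF and 445, 454 and 417 in hSRY-ON, and at Smtn ILMN_2955973 it was 492, 431 and 409 against 323, 354 and 358. Both probes placed every hSRY-ON array below every hSRY-OFF array. Their log2 fold changes were -0.47 (SE 0.10, unadjusted p 0.00214, adjusted p 0.0611) and -0.51 (SE 0.12, unadjusted p 0.00387, adjusted p 0.0791), in limma, so neither was called. Both passed the threshold in 4 of 15 alternative settings, and both kept their direction in all 15. The third Smtn probe (ILMN_2621581) was not detected on any of the 6 arrays and adds no value.

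Acta2 was detected by 4 probes on every array. At the brightest, ILMN_2693895, the deposited signal was 1275, 1241 and 1216 in hSRY-OFF and 1114, 1279 and 1265 in hSRY-ON. The groups overlapped, with hSRY-ON array 1 the lowest of the 6, and the log2 fold change was 0.05 (95% interval -0.23 to 0.32, adjusted p 0.860). At ILMN_2923445 the signal was 335, 301 and 311 in hSRY-OFF and 334, 351 and 339 in hSRY-ON, where hSRY-ON array 1 was level with hSRY-OFF array 1 before normalization and above it afterwards. This probe had a log2 fold change of 0.30 (95% interval 0.07 to 0.52, unadjusted p 0.0172, adjusted p 0.147) and was the only mural probe with higher normalized values on all 3 hSRY-ON arrays. The remaining Acta2 probes differed by 0.07 (ILMN_2710353, adjusted p 0.868) and by 0.18 (ILMN_2710354, adjusted p 0.459) on the log2 scale, the latter 0.06 without hSRY-ON array 3. The direction of ILMN_2693895 and ILMN_2710353 turned when hSRY-OFF array 1 was left out, and likewise for array 2 or 3 of hSRY-ON, so it is not settled. The lowest values were -0.01 and -0.05, both without an hSRY-ON array.

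Actin genes are close in sequence, and whether their probes read one another was not tested. Acta1, the skeletal muscle actin, rose from 8.90 ± 0.09 to 9.33 ± 0.03, by 0.43 on the log2 scale (adjusted p 0.0479), a call that was lost with median scaling, with no filter on dim probes, with a replicate block and in every fit without 1 array except that without hSRY-ON array 3. Actg2, the enteric smooth muscle actin, had a log2 fold change of 0.24 (adjusted p 0.508) and was detected on 3 arrays. Of 18 skeletal and cardiac muscle genes, 9 were tested at 10 probes and Acta1 alone was called, against 2.17% of all probes. Tnnc1 came next (log2 fold change 0.48, adjusted p 0.151). Their summed normalized signal was 1845 to 2011 in hSRY-OFF and 1976 to 2255 in hSRY-ON, so the groups overlapped. The skeletal muscle genes Myh8, Tnnt1, Tnnc1 and Myl1 (at 1 of its probes) were detected on all 6 arrays, whereas Ckm, Mylpf and Tnnt3 failed the detection filter.

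Tagln, which encodes the actin-binding protein transgelin, had signals of 176 to 187 in hSRY-OFF and 169 to 183 in hSRY-ON, with detection p-values of 0.094 to 0.343. Cnn1, which encodes calponin 1, lay at 155 to 172 and 149 to 154, with detection p-values of 0.249 to 0.950. Both were not detected on any of the 6 arrays and are given no fold change. Myh11, the smooth muscle myosin heavy chain, had signals of 193, 200 and 187 in hSRY-OFF and 196, 211 and 187 in hSRY-ON, and was detected on array 2 of each genotype only. The most specific contractile markers of smooth muscle were therefore at or below the limit of this array in these samples, and 12 of 33 other smooth muscle genes on the array, among them Lmod1 and Pln, also failed the detection filter.

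Among the pericyte genes other than Vtn, Rgs5, which encodes a regulator of G protein signalling abundant in brain pericytes, had deposited signals of 625, 476 and 476 in hSRY-OFF and 416, 421 and 463 in hSRY-ON. All hSRY-ON arrays lay below the hSRY-OFF arrays, and hSRY-OFF array 1 stood well above the rest. The log2 fold change was -0.31 (SE 0.12, 95% interval -0.61 to -0.02, unadjusted p 0.0393, adjusted p 0.213), and it was -0.21 without hSRY-OFF array 1. Rgs5 was not called in any of the 15 alternative settings.

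Notch3, the Notch receptor of mural cells, had deposited signals of 667, 584 and 559 in hSRY-OFF and 579, 484 and 517 in hSRY-ON. These overlapped before normalization, but the normalized log2 values, 8.81, 8.79 and 8.73 against 8.70, 8.46 and 8.60, did not. The log2 fold change was -0.19 (95% interval -0.40 to 0.02, unadjusted p 0.0694, adjusted p 0.275), and it was -0.13 without hSRY-ON array 2. Transcripts that Notch signalling is known to raise, named here for that role after their values were seen, were not called either, with log2 fold changes of -0.04 for Hey1 (adjusted p 0.826), -0.03 for Hes1 (0.940) and -0.29 for Nrarp (0.141).

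Pdgfrb had deposited signals of 352, 317 and 277 in hSRY-OFF and 333, 290 and 290 in hSRY-ON. The groups overlapped over most of their range, and the log2 fold change was 0.01 with a 95% interval of -0.31 to 0.32 (adjusted p 0.979). Its sign turned with median scaling (-0.0092) and without hSRY-OFF array 3 (-0.11) or hSRY-ON array 1 (-0.08). Anpep, which encodes aminopeptidase N, a peptidase on the pericyte surface, had signals of 265, 241 and 255 against 265, 226 and 231. Its groups overlapped as well, with a log2 fold change of -0.10 (95% interval -0.41 to 0.21, adjusted p 0.716), and it ranged from -0.23 without hSRY-ON array 1 to -0.028 without hSRY-ON array 2. These intervals are for each gene against 0. The differences in response between Vtn and the other pericyte genes were not tested.

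Other genes of the same cells were read from fixed lists. Of 26 further pericyte genes, 16 were tested at 21 probes, with a median log2 fold change of 0.11. In limma 0 probes were called, against 2.17% of all probes, and 2 had an unadjusted p under 0.05, against 20.9%. The lowest p-values belonged to 2 probes of P2ry14, which encodes a receptor for UDP-sugars, which differed by 0.50 (adjusted p 0.101) and by 0.62 (adjusted p 0.159) on the log2 scale. The potassium channel genes Kcnj8 and Abcc9, which define brain pericytes, had log2 fold changes of -0.11 (adjusted p 0.659) and 0.18 (0.441), and the pericyte proteoglycan gene Cspg4 had -0.07 (0.683). The count of calls in this list was 2 without background correction and with a trend and robust prior, and 0 in the other 13 alternatives.

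Of 36 further smooth muscle genes, 21 were tested at 27 probes, with a median log2 fold change of -0.06. In limma 0 probes were called, against 2.17% of all probes, and 3 had an unadjusted p under 0.05, against 20.9%. Mustn1 (log2 fold change 0.74, adjusted p 0.0595) and Ednra, the endothelin receptor of smooth muscle (-0.34, adjusted p 0.106), had the lowest p-values. The count of calls in this list rose to 2 without hSRY-ON array 3, without background correction and with a trend and robust prior.

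**Figure D3:**
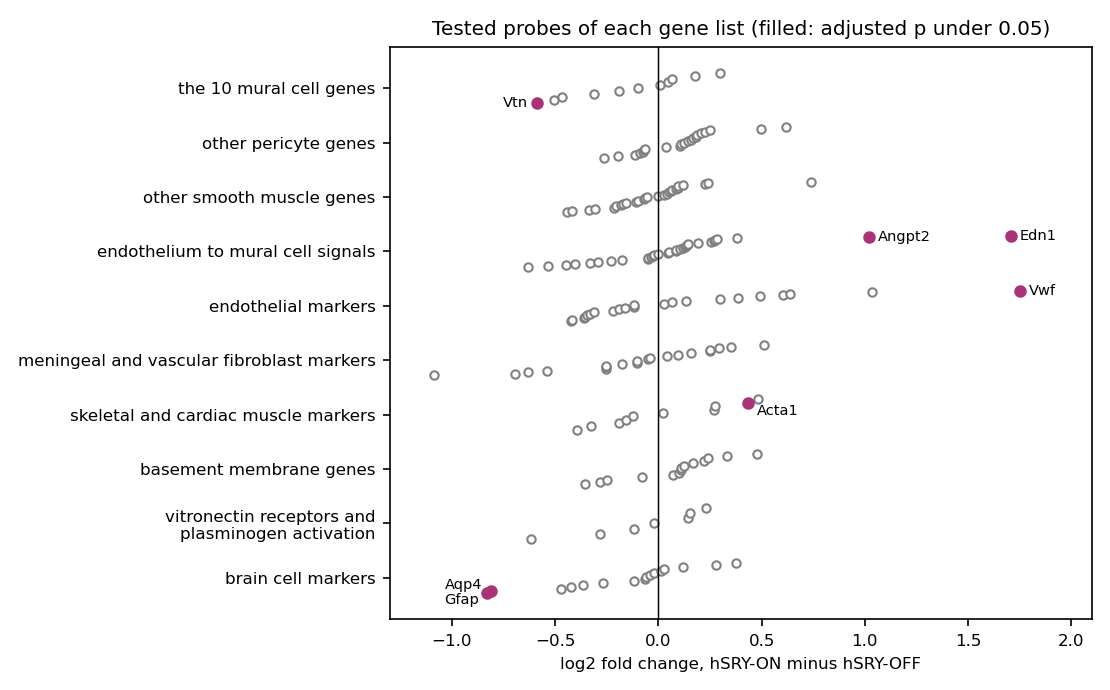
Log2 fold change (x axis, hSRY-ON minus hSRY-OFF) of every tested probe in the mural cell genes and in 9 lists of related or other cell types (y axis), sorted within each list. Filled points had an adjusted p under 0.05 and are named. Vtn is the only filled point among the mural, other pericyte and other smooth muscle genes, and Angpt2, Edn1 and Vwf stand to the right among signalling and endothelial genes.

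The signals that pass between endothelium and mural cells held 2 called probes of 32 tested, both higher in hSRY-ON. Over all probes 2.17% were called, 0.844% higher. At an unadjusted p under 0.05 there were 4 higher and 7 lower, against 20.9% of all probes (10.9% lower). Angpt2, an endothelial ligand known to loosen the contact between endothelium and pericytes, was at 7.51, 7.63 and 7.81 in hSRY-OFF and 8.99, 8.41 and 8.61 in hSRY-ON (normalized log2 signal). Every hSRY-ON array was above every hSRY-OFF array, a rise of 1.02 (SE 0.16, adjusted p 0.0348). Edn1, which encodes the vasoconstrictor endothelin 1, rose by 1.71 (SE 0.25, adjusted p 0.0321), while its receptor gene Ednra is given above. Tgfbr2, a receptor of transforming growth factor beta, and Smad2, which carries its signal, came next by p (log2 fold changes -0.45, adjusted p 0.0565, and -0.41, adjusted p 0.0756) and were not called. Pdgfb, the ligand of Pdgfrb, and Tek, the receptor of the angiopoietins, were named for their roles. All 4 were chosen after their values were seen. Neither ligand nor receptor was called, at a log2 fold change of -0.33 for Pdgfb (SE 0.09, adjusted p 0.0929) and of -0.53 for Tek (SE 0.13, adjusted p 0.0861), and Angpt1, the pericyte ligand of Tek, had -0.06 (adjusted p 0.838). With a replicate block 0 probes of this list were called, without background correction 9 (when 1317 probes of the whole table were called, against 308 as reported), and in fits without 1 array 0, except for 5 without hSRY-ON array 3 (417 of the whole table).

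Levels of neighbouring cell types are given beside the mural values because these cells share the vessel wall. Of 24 endothelial genes, 19 were tested at 22 probes with 1 called, Vwf, the von Willebrand factor gene, which rose by 1.75 (adjusted p 0.0240), followed by Ly6c1 (0.64, adjusted p 0.0513, not called). At an unadjusted p under 0.05 there were 12 of the 22 endothelial probes, 6 in each direction, against 20.9% of all probes. None but Vwf was called, against 2.17% of all probes. Defining markers lay on both sides, with log2 fold changes of -0.42 for Cldn5 (adjusted p 0.126), -0.35 for Cdh5 (adjusted p 0.151), -0.12 for Esam (adjusted p 0.493), 0.49 for Flt1 (adjusted p 0.131), and -0.16 and 0.07 for the probes of Pecam1 (adjusted p 0.357 and 0.765). The summed normalized signal of the endothelial list was 23897 to 24463 in hSRY-OFF and 23626 to 24957 in hSRY-ON, so the groups overlapped. Of 18 meningeal and vascular fibroblast genes, 16 were tested at 20 probes with 0 called in limma, against 2.17% of all probes. At an unadjusted p under 0.05 there were 10 of these probes, 5 in each direction, against 20.9%. Lum, which encodes lumican, had a log2 fold change of -1.09 (adjusted p 0.0682) and Bgn, which encodes biglycan, -0.63 (adjusted p 0.0791), and the summed signal of the list was 33106 to 35060 in hSRY-OFF and 30751 to 34943 in hSRY-ON. Of the brain cell markers, the astrocytic Aqp4 and Gfap fell by 0.81 (adjusted p 0.0275) and 0.83 (adjusted p 0.0308), but the astrocytic Aldoc (log2 fold change 0.28, adjusted p 0.105) and Slc1a3 (0.03, adjusted p 0.897) did not move with them. The brain cell markers summed to 59479 to 63839 in hSRY-OFF and 54205 to 58954 in hSRY-ON, and the mural members, Vtn included, to 5228 to 5381 and 3863 to 4477, neither overlapping. Such sums are weighted to the brightest genes and do not describe each member. Vtn was the brightest of the mural members. Mbp was among the brightest brain cell markers (log2 fold change -0.47 at ILMN_2737200, adjusted p 0.0601). At their brightest probes, 9 brain cell marker genes were lower and 3 higher, with a median log2 fold change of -0.09. These counts of calls depended on the setting. Endothelial calls ranged from 0 to 10, fibroblast calls from 0 to 7 and brain cell marker calls from 0 to 5, the highest of each without background correction or with a trend and robust prior, where calls over the whole table rose to 1317 and 1447. All 3 lists had 0 calls with a replicate block or without any 1 array other than hSRY-ON array 3, and without that array there were 3, 4 and 2. The part of these cell types in the fall of Vtn was not tested.

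**Figure D4:**
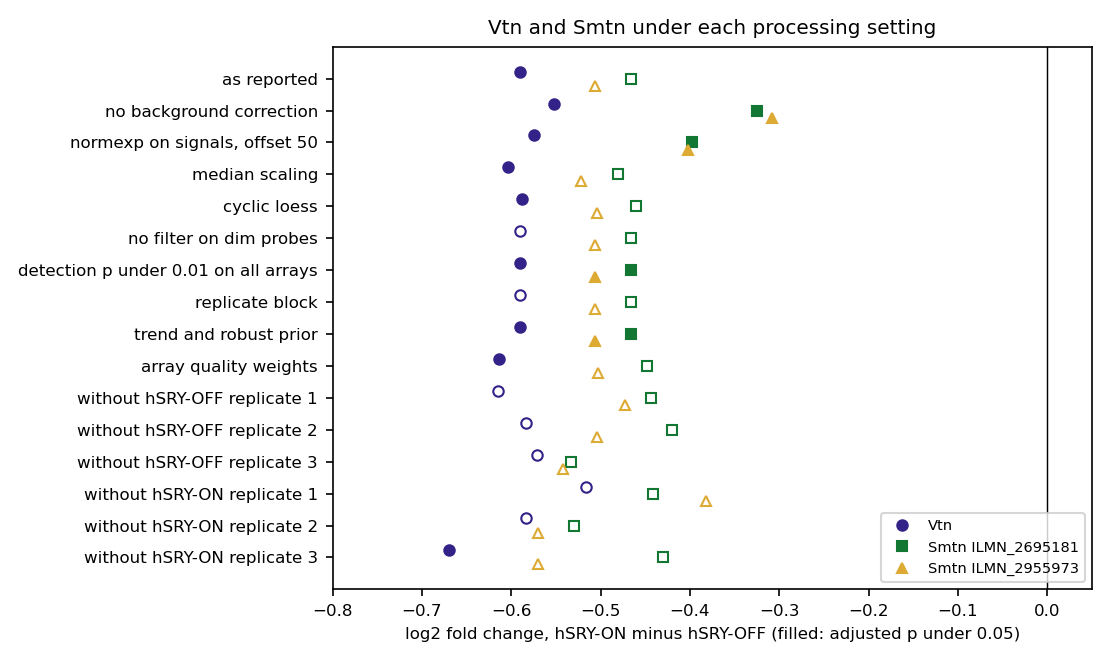
Log2 fold change (x axis, hSRY-ON minus hSRY-OFF) of Vtn and of both tested Smtn probes under the reported setting and 15 alternatives (y axis), with filled symbols at an adjusted p under 0.05. All symbols lie between -0.67 and -0.31, so the direction held for each probe while the call depended on the setting.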

How the data were processed

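Brain RNA of 3 hSRY-OFF and 3 hSRY-ON mice was hybridized to Illumina MouseRef-8 v2.0 bead arrays. The authors deposited a mean bead signal intensity per probe, not normalized, with a detection p-value beside it. The detection p-values deposited have steps that correspond to 798 negative controls per array. The study names the package TCC for its own analysis, without settings. Background handling before deposit is not given in the sources used here.

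Signals were corrected with normexp in limma 3.58.1 (R 4.3.3), with negative controls inferred from the detection p-values and an offset of 16, put on the log2 scale and quantile normalized. This subtraction widens the spread of dim probes. Probes detected (p under 0.05) on at least 3 of 6 arrays were tested with lmFit and eBayes (two-sided, no covariate, Benjamini-Hochberg over all tested probes). Probes of 1 gene were kept apart. The fit was tested on simulated data. The number of arrays limits the precision. The members, gene lists, motifs and rules for naming genes were chosen with earlier results of these data known. From each further list the text names up to 4 called probes that do not overlap between groups. With fewer than 2 called, it also names the 2 of lowest p. Defining markers of a cell type are named besides, and some further genes were named after their values were seen. A gene of the vitronectin receptor and plasminogen activation list is not reported here. Symbols were matched as deposited, or through synonyms of GRCm38.p6. Alternatives were other background corrections, normalizations and filters, a replicate block, another prior, array weights and leaving out each array. Figures used matplotlib 3.10.9 in Python 3.11.15.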

Additional observations from a re-analysis of the deposited data

How the results depend on the processing

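The count of called mural probes, 1 as reported, became 3 (Vtn and both Smtn probes) without background correction, with normexp on the signals and an offset of 50, with a detection p-value under 0.01 asked on all arrays, and with a trend and robust prior, settings in which the calls over all probes rose from 308 to 1317, 860, 705 (of 11619 tested) and 1447. It became 0 with no filter on dim probes, where 25697 probes were tested, and 0 with a replicate block, and it stayed at 1 with median scaling, cyclic loess and array quality weights. Leaving out 1 array gave 0 to 1 mural calls (3 to 5 at an unadjusted p under 0.05) and 0 to 417 calls over all probes. Genotypes shared replicate numbers, but same-numbered arrays deviated together only weakly (r of 0.040, 0.029 and 0.025 across probes). Each array correlated best with its own number, and r was below 0 for arrays of different numbers. Whether same-numbered arrays shared a batch is not given in the labels and was not tested. With the replicate block, the adjusted p of Vtn was 0.103 and 0 probes were called over the whole array. Vtn, both Smtn probes, Rgs5, Notch3, Anpep and 2 of 4 Acta2 probes kept their direction in all 15 alternatives. The log2 fold change of Pdgfrb turned to -0.0092 with median scaling and ranged from -0.113 to 0.0752 when an array was left out. In those fits Acta2 ranged from -0.0144 to 0.154 at ILMN_2693895 and from -0.0488 to 0.269 at ILMN_2710353. Signal over background limits Tagln, Myh11, Cnn1 and the dim Smtn probe, for which only a bound is known.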

Other observations

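Vitronectin is laid down in the vessel wall and is bound by integrins, so the genes of its partners were read as well. Of 8 vitronectin receptor and plasminogen activation genes, 6 were tested at 7 probes, and 0 were called in limma, against 2.17% of all probes. Plau alone had an unadjusted p under 0.05, against 20.9% of all probes. Plau, which encodes urokinase, had a log2 fold change of -0.62 (adjusted p 0.121). It was detected on only 4 arrays, with mean deposited signals of 208 in hSRY-OFF and 182 in hSRY-ON, so this value lies near the floor. Itgb1, the integrin beta 1 chain, had -0.28 (adjusted p 0.355) at its brighter probe. The integrin chain genes Itgav and Itgb5, named for their role after their values were seen, lay at 0.15 (adjusted p 0.426) and at -0.02 (adjusted p 0.955) on the same scale.

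The basement membrane that pericytes share with the endothelium was read through 13 tested genes at 14 probes, with a median log2 fold change of 0.11. In limma 0 probes were called, against 2.17% of all probes. At an unadjusted p under 0.05 there were 4, 2 in each direction, against 20.9% of all probes. Lama1, a laminin chain gene, had a log2 fold change of 0.48 (adjusted p 0.0855) and Sparc, which encodes a collagen-binding matrix protein, 0.33 (adjusted p 0.104) at ILMN_3059326 but 0.11 (adjusted p 0.580) at its brighter probe, ILMN_3136561. Nid1 and Nid2, which encode the nidogens that link laminin to collagen IV, were named after their values were seen and lay on the other side, at -0.35 (adjusted p 0.128) and -0.28 (adjusted p 0.222). The count of calls was 3 without background correction and with a trend and robust prior. The summed signal of the list was 32138 to 33546 in hSRY-OFF and 33471 to 34075 in hSRY-ON.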
